A study of Homo sapiens with 12 samples.

Results

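Messenger RNA levels of 10 genes that set the balance between cell survival and apoptosis were followed across a prolactin receptor experiment in a human breast epithelial line. Of the 10, 7 belong to the BCL2 family (BCL2, BCL2L1, MCL1, BCL2L11, BBC3, BMF and PMAIP1) and 3 are the PIM kinases (PIM1, PIM2 and PIM3). They were chosen by symbol among 62702 gene entries with counts, and all 10 passed the count filter that left 17677 genes for testing. The cells were MCF10AT, a Ras-transformed derivative of the non-tumorigenic MCF10A line, and every group expressed the long prolactin receptor hPRLrL together with the intermediate receptor hPRLrI. The I-tail, the stretch of the intermediate form that the study removed by mutation, was either deleted or intact. All cells were serum-starved for 24 h in medium with albumin, and were then treated with prolactin (PRL) at 250 ng/ml for 2 h or left untreated. The 4 groups were I-tail-deleted cells with PRL, I-tail-deleted cells without PRL, I-tail-intact cells with PRL and I-tail-intact cells without PRL, with 3 libraries each. The treatment protocol calls the replicates biological, and the labels do not say whether each receptor pair came from 1 clone or a pool.

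BCL2, BCL-XL (from BCL2L1) and MCL1 are guardian proteins of the mitochondrial outer membrane that hold the pore-forming proteins BAX and BAK in check. The BH3-only proteins BIM (BCL2L11), PUMA (BBC3), BMF and NOXA (PMAIP1) bind the guardians, and the stronger of them release the pore formers and so start the mitochondrial route to apoptosis. The PIM kinases are serine/threonine kinases that are active once made, so that transcription and turnover largely set their activity. They are known as targets of cytokine receptors that signal through JAK2 and STAT5, the pathway used by the prolactin receptor, and they phosphorylate the BH3-only protein BAD.

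STAT5 dimers bind the palindrome TTCNNNGAA, called a GAS element. The windows below, from 250 bases before to 50 bases after the gene start in RefSeq (GRCh38.p14), are those of CISH and 3 members. CISH, the cytokine-inducible inhibitor used here as the check of treatment, is shown because it holds the elements. Its contrast with the members in these elements follows from that choice. PIM1 is shown as the kinase best known as a STAT5 target, and PIM3 and BBC3 because they had the smallest unadjusted p for the averaged PRL effect. Capitals mark TTCNNNGAA, GTAAACA (the core of forkhead FOXO sites) and CACGTG (an E-box), searched on both strands. The windows lie at chr3:50611725-50612024 (minus strand) for CISH, chr6:37169902-37170201 (plus strand) for PIM1, chr22:49960522-49960821 (plus strand) for PIM3 and chr19:47232618-47232917 (minus strand) for BBC3, each written 5′ to 3′ on the gene's own strand.
CISH: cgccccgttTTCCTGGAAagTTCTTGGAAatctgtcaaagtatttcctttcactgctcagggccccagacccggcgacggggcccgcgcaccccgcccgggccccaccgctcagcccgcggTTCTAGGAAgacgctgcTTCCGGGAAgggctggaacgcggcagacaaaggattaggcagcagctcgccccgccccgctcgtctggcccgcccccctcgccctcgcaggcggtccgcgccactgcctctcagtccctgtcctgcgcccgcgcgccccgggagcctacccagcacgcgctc
PIM1: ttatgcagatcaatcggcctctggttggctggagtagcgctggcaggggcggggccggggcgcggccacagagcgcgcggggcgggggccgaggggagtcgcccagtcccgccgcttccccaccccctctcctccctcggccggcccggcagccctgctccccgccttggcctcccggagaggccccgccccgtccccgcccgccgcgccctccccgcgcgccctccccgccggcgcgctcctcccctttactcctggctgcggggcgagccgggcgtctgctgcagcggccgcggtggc
PIM3: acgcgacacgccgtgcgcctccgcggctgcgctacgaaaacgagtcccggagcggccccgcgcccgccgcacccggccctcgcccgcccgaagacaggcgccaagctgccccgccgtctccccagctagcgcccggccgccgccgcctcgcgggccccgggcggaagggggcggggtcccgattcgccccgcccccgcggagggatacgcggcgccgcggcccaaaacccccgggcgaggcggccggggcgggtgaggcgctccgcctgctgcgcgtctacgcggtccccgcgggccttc
BBC3: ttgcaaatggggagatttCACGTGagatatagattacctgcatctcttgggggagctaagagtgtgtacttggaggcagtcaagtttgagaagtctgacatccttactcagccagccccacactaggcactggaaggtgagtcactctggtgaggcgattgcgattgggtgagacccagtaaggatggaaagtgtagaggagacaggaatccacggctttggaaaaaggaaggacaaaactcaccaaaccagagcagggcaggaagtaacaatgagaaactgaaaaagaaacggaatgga

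The CISH window held 4 GAS elements, TTCCTGGAA at bases 10 to 18, TTCTTGGAA at 21 to 29, TTCTAGGAA at 122 to 130 and TTCCGGGAA at 139 to 147, counted from its first base. Among the members, 9 of 10 had a window in the promoter table, 11 windows in all because BCL2L1 and BMF each had a pair of starts, and MCL1 had none. None of the 11 windows held TTCNNNGAA, which occurred in 7.66% of all 35116 promoter windows of the same length. Against such a share, 11 windows are too few for its absence to be read as a trait of the members. The FOXO core was found in 1 member window, that of BCL2L11, against 3.42% of all windows. The E-box was found in 1 as well, that of BBC3, against 7.26% of all windows. GC boxes (GGGCGG or its complement) were present in 7 of the 11 windows, against 45% of all windows, with 5 matches in PIM3 and 4 in PIM1. These matches describe letters in short windows, and elements farther away were not searched. Their part in the response of any gene to PRL was not tested.

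Libraries held 36120808 to 57324865 counts assigned to genes. CISH checked the treatment: it averaged 59.4 ± 6.11 CPM with PRL and 4.57 ± 1.14 CPM without in deleted cells, and 60.5 ± 8.95 CPM with PRL and 3.83 ± 0.99 CPM without in intact cells (SD, n = 3 each; CPM are TMM-scaled counts relative to library size). PRLR, the receptor gene itself, stood at 3099 to 3959 CPM in all 12 libraries, and counts per gene cannot separate its forms. All 9 epithelial markers were above 1 CPM on average, while the leukocyte markers PTPRC and CD3E reached at most 1 count and MS4A1 was at 0. Of the other leukocyte markers CD14 and CSF1R were present (CD14 at 22.4 CPM with PRL and 14.4 CPM without), and the summed level of the 8 leukocyte markers was 52.9 to 65.2 CPM in deleted PRL, 38.6 to 54.3 CPM in deleted untreated, 56.6 to 64.5 CPM in intact PRL and 41.5 to 47.2 CPM in intact untreated libraries. Of the 7 fibroblast markers 4 averaged above 1 CPM, namely DCN (319.5), COL1A1 (146.8), PDGFRB (20.3) and COL3A1 (1.45). COL1A2 reached at most 32 counts, and LUM and PDGFRA stood at 10 counts or fewer. The 7 together summed to 423.5 to 618 CPM, and the 5 endothelial markers to 1.17 to 3.09 CPM.

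The sample titles are numbered in sequence, and each of 3 consecutive runs of 4 titles holds 1 library of every group. The labels do not say what these runs are, and libraries 1, 2 and 3 of each group below come from the first, the second and the third run. Libraries of the first run stood apart: their 9 epithelial markers summed to 1787 to 2147 CPM, against 5168 to 6510 CPM in the second run and 6644 to 10170 CPM in the last. Members are therefore given by library, and PRL is also set against no treatment within each run.

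CPM per kilobase of summed exon length allows levels of different genes to be compared. On this scale BCL2L1 had the highest mean, 41.2 ± 17.6 over the 12 libraries, treated and untreated together (SD). PIM3 followed with 32.5 ± 10.3, BMF with 25.2 ± 6.48 and MCL1 with 23.2 ± 3.57 CPM per kilobase. In the middle stood BBC3 with 15.4 ± 3.52, PIM2 with 9.22 ± 2.20, BCL2L11 with 8.06 ± 2.96 and PIM1 with 3.64 ± 0.65 CPM per kilobase. PMAIP1 and BCL2 were the lowest, with means of 0.21 ± 0.21 and 0.08 ± 0.03 CPM per kilobase. Neighbours in this order overlapped in their ranges over the libraries at every step except that between PIM1 and PMAIP1. BCL2L1 was above PIM3 in 8 of 12 libraries. Without PRL, PIM3 had the higher mean, 35.1 against 31.1 in deleted and 44.8 against 39.1 in intact cells. With PRL, BCL2L1 had the higher mean, 37.5 against 23.5 in deleted and 57.1 against 26.4 in intact cells. Thus the transcripts of BCL-XL and MCL1 were abundant in these cells, and that of BCL2 was scarce, at 16 to 56 counts per library. With the longest transcript in place of summed exons, BBC3 reached 26.7 CPM per kilobase, above MCL1 at 25.8.

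**Figure D1:**
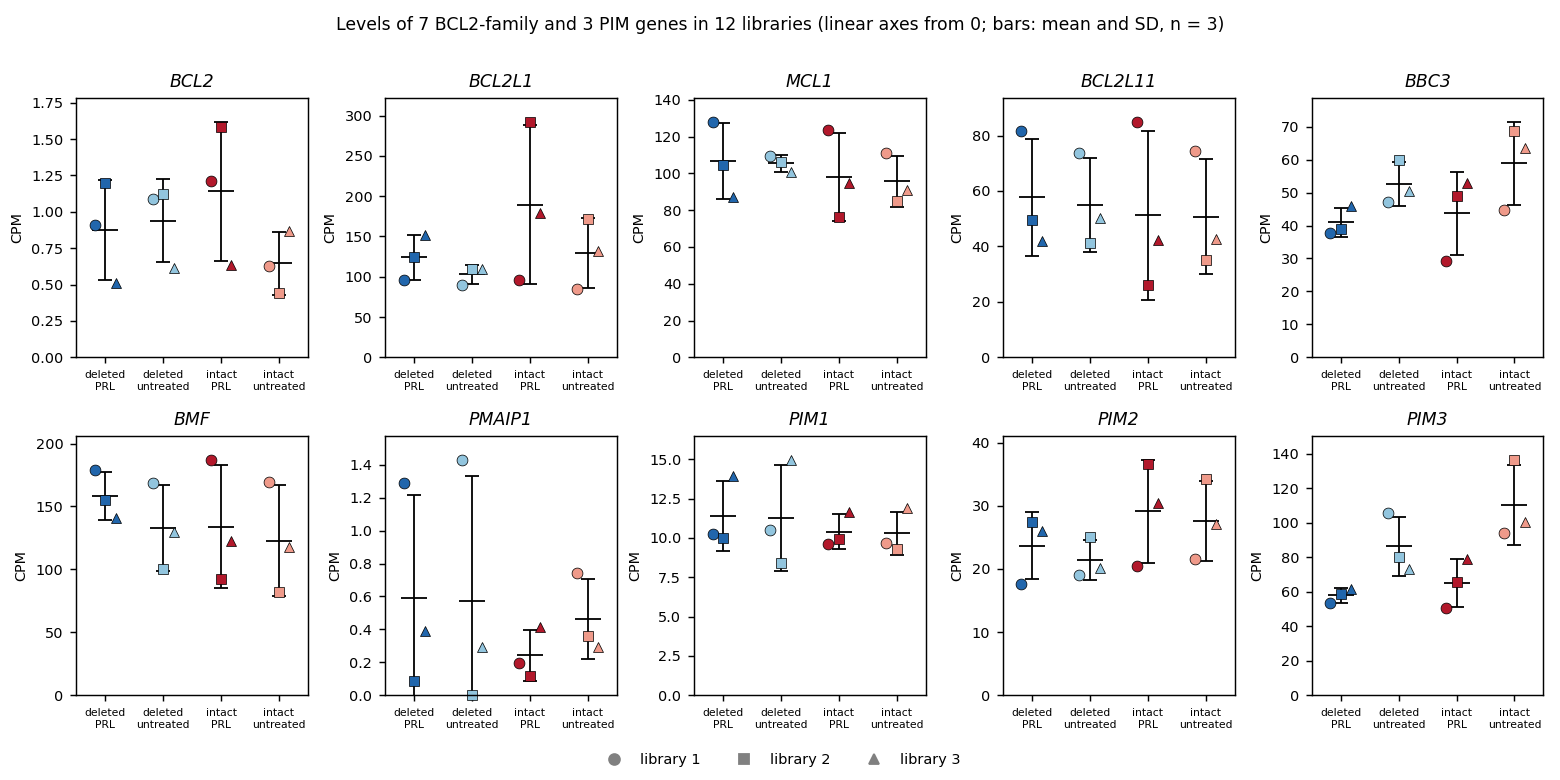
Levels of the 10 genes in CPM (linear axes from 0) in deleted PRL, deleted untreated, intact PRL and intact untreated cells. Symbols mark library 1, 2 or 3 of a group and bars the mean and SD of 3 libraries. PIM3 is lower with PRL in both receptor pairs (mean 57.9 CPM with PRL against 86.3 CPM without in deleted cells, and 65.03 CPM with PRL against 110.3 CPM without in intact cells), while library 1 (circles) stands above the rest for BCL2L11 in all 4 groups.

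The first question was what 2 h of PRL did to these transcripts. In the main fit, which had no term for the run, none of the 10 members passed in any PRL comparison. The test was edgeR's quasi-likelihood test with Benjamini-Hochberg adjustment at 0.05. In the same fit 0.017% of tested genes passed in deleted cells, 0.017% in intact cells and 0.119% for the average of both. At an unadjusted p under 0.05, the averaged effect had 2 members, PIM3 and BBC3, both lower with PRL, against 3.81% of tested genes in either direction and 1.64% with a lower level. Each receptor pair alone had 1 member at that limit, PIM3, against 1.79% of tested genes in deleted and 2.55% in intact cells. DESeq2 called 1 member for the average, PIM3, against 0.624% of the genes it tested, and none in either pair, and limma-voom called none. With a term for the run, edgeR called 1 member for the average, PIM3, against 1.12% of tested genes. With 1 surrogate variable it called 3, PIM3, BBC3 and BMF, against 0.905%. Neither called a member in either pair, and the fit without the first run called none. No member stood above all untreated libraries of its pair, against 3.29% of tested genes in deleted and 2.61% in intact cells. The median log2 fold change of the 10 was 0.03, against -0.02 over all tested genes, with 7 members above 0. The effects in deleted and in intact cells share no libraries, but they come from 1 fit with shared dispersions. Both receptor pairs also span the same 3 runs of titles.

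PIM3 (ENSG00000198355; chr22:49960513-49964080, plus strand, GRCh38) encodes the kinase of the family that was most abundant in these cells. In deleted cells it stood at 53.3, 58.8 and 61.7 CPM with PRL, against 105.5, 80.1 and 73.2 CPM without. In intact cells it stood at 50.7, 65.6 and 78.8 CPM with PRL, against 94.0, 136.7 and 100.3 CPM without. Every PRL library was thus below every untreated library of its receptor pair, a pattern met by 4.97% of tested genes in deleted cells, 2.88% in intact cells and 0.373% in both pairs. Across receptor pairs the ranges met, since intact PRL library 3 at 78.8 CPM lay above deleted untreated library 3 at 73.2 CPM, and full separation of 6 from 6 libraries held for 0.238% of tested genes.

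The log2 fold change of PIM3 with PRL was -0.57 ± 0.21 in deleted cells (SE, 95% interval -1.03 to -0.12) and -0.76 ± 0.21 in intact cells (-1.22 to -0.30). Without the first run it was -0.32 ± 0.18 in deleted cells, with an interval of -0.72 to 0.076 that holds 0, and -0.73 ± 0.18 in intact cells (-1.13 to -0.33). Averaged over both it was -0.67 ± 0.15 (-0.99 to -0.34), which is 0.629 times the untreated level (0.502 to 0.788). The unadjusted p of that average was 6.26e-04 and the adjusted p 0.221 in edgeR's quasi-likelihood test, so the difference did not pass. Within runs PRL stood below no treatment in 6 of 6 pairs of libraries, at 0.505, 0.734 and 0.843 times the untreated level in deleted cells and at 0.539, 0.480 and 0.786 times in intact cells, and 6.05% of tested genes were lower in all 6. With a term for the run added to the fit, the average was -0.67 ± 0.13 with an adjusted p of 0.0137 (edgeR), where 1.12% of tested genes passed. It also passed in DESeq2 (-0.65, adjusted p 0.0318) and, in edgeR, with library size as the only scaling (-0.78, adjusted p 0.0427), with no count filter (-0.67, adjusted p 0.00993) and with 1 surrogate variable (-0.73, adjusted p 0.00746). These settings called 0.141% of tested genes with library size, 0.366% with no filter and 0.905% with the surrogate variable. The other 6 of 11 alternatives did not pass, among them the fit without the first run (-0.53 ± 0.13, adjusted p 0.268). Each of the 12 fits that left out 1 library kept the average below 0, at -0.74 to -0.57, and none passed. These fits had no run term, like the fit of all libraries that did not pass. Leave-outs with the run term were not fitted. The leukocyte marker sum overlapped between treatments in deleted cells (52.9 to 65.2 CPM with PRL, 38.6 to 54.3 CPM without). In intact cells it did not overlap (56.6 to 64.5 CPM with PRL, 41.5 to 47.2 CPM without). Of single tested genes, 2.61% were likewise higher with PRL without overlap in intact cells. None of the 3 leukocyte markers that could be tested passed for the averaged PRL effect. The part of this sum in the PIM3 values was not tested. In bulk RNA, fewer cells with a transcript and less of it per cell cannot be told apart.

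**Figure D2:**
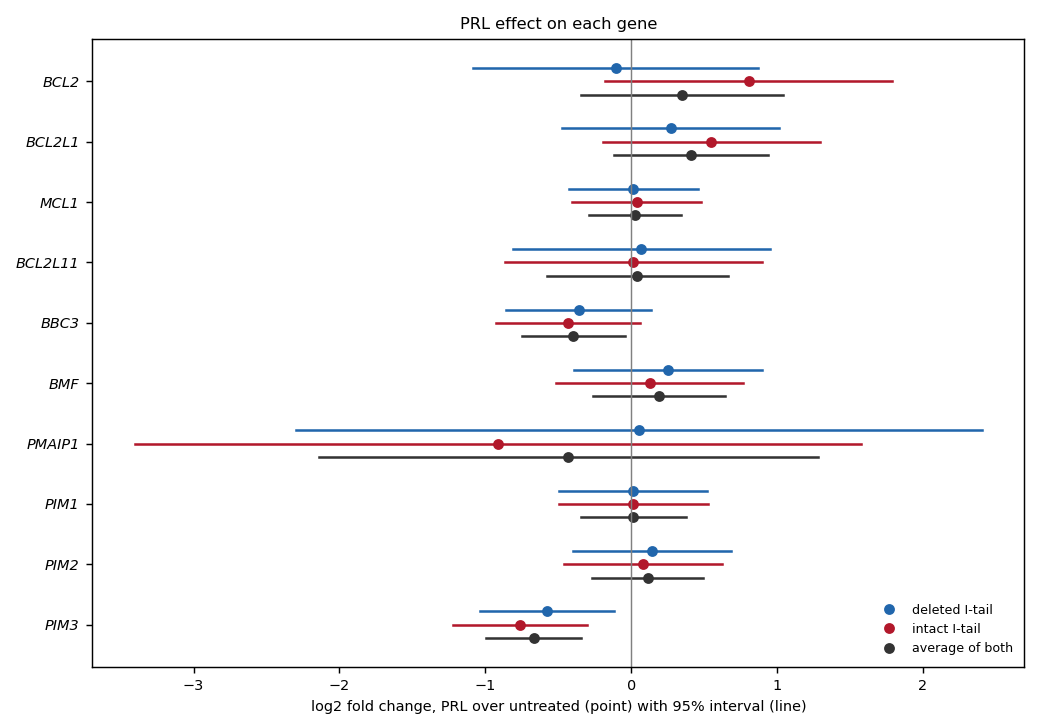
Log2 fold change of each gene with PRL over untreated cells (x axis), with deleted and intact I-tail and as the average of both, with 95% intervals from the edgeR quasi-likelihood fit. The interval of PIM3 lies below 0 in both pairs (-0.57 in deleted and -0.76 in intact cells), that of BBC3 only in the average (-0.40), and PMAIP1 has by far the widest intervals.

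PIM1 (ENSG00000137193; chr6:37170203-37175426, plus strand), the kinase known as a transcriptional target of STAT5, had an averaged difference near 0 between treatments. Deleted cells held 10.2, 10.0 and 13.9 CPM with PRL, against 10.5, 8.41 and 15.0 CPM without. Intact cells held 9.61, 9.92 and 11.7 CPM with PRL, against 9.69, 9.29 and 11.9 CPM without. The groups overlapped in both pairs, and library 3 was the highest of its group in all 4. The averaged log2 fold change was 0.01 ± 0.17 (SE), with a 95% interval of -0.35 to 0.37, or 0.787 to 1.295 times the untreated level. Its sign turned with upper-quartile scaling (-0.0054), library size alone (-0.10), limma-voom (-0.062) and 1 surrogate variable (-0.020), and leave-outs of 1 library ranged from -0.072 to 0.14. In the same libraries CISH rose, with an averaged log2 fold change of 3.84 ± 0.18 (edgeR quasi-likelihood, adjusted p 1.45e-07).

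PIM2 (ENSG00000102096; chrX:48913182-48919024, minus strand), the family member best known from lymphoid cells, lay between PIM1 and PIM3 in level. Levels in deleted cells were 17.6, 27.4 and 26.1 CPM with PRL, against 19.0, 25.1 and 20.2 CPM without. Levels in intact cells were 20.4, 36.6 and 30.5 CPM with PRL, against 21.5, 34.2 and 27.1 CPM without. Treatments overlapped in both pairs, with 4 of 6 within-run pairs higher with PRL. The averaged log2 fold change was 0.11 ± 0.18 (95% interval -0.27 to 0.49), and its sign turned with library size alone (-0.0063) and with 1 surrogate variable (-0.050). Summed over the 3 kinases per kilobase, the level was 31.4, 37.2 and 39.2 with PRL against 53.3, 44.5 and 42.1 without in deleted cells, and 31.2, 43.3 and 47.0 with PRL against 49.3, 71.0 and 54.6 without in intact cells. The sum therefore did not overlap between treatments within either pair, and PIM3 made up most of it. PIM3 alone separated likewise, as 0.373% of tested genes did in both pairs, while PIM1 and PIM2 overlapped. The sum itself was not tested.

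Among the BH3-only genes, BBC3 (ENSG00000105327; chr19:47220822-47232766, minus strand) had the smallest unadjusted p for the averaged PRL effect. BBC3 encodes PUMA, a direct p53 target that can bind all the guardians. Deleted cells gave 37.8, 38.9 and 46.0 CPM with PRL, against 47.1, 60.0 and 50.5 CPM without. Intact cells gave 29.3, 48.9 and 52.9 CPM with PRL, against 44.7, 68.6 and 63.6 CPM without. Treatments did not overlap in deleted cells, as for 4.97% of tested genes in that direction, and overlapped in intact cells. The log2 fold change was -0.36 ± 0.23 (SE) in deleted and -0.43 ± 0.23 in intact cells, and -0.40 ± 0.16 averaged (95% interval -0.75 to -0.05). The average had an unadjusted p of 0.0297 and an adjusted p of 0.98 in edgeR's quasi-likelihood test. Within runs BBC3 was lower with PRL in 6 of 6 pairs, at 0.649 to 0.912 times the untreated level, as for 6.05% of tested genes. Of the 11 alternatives, the fit with 1 surrogate variable alone passed it (-0.52, adjusted p 0.00599), and with the run term the adjusted p was 0.0781.

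**Figure D3:**
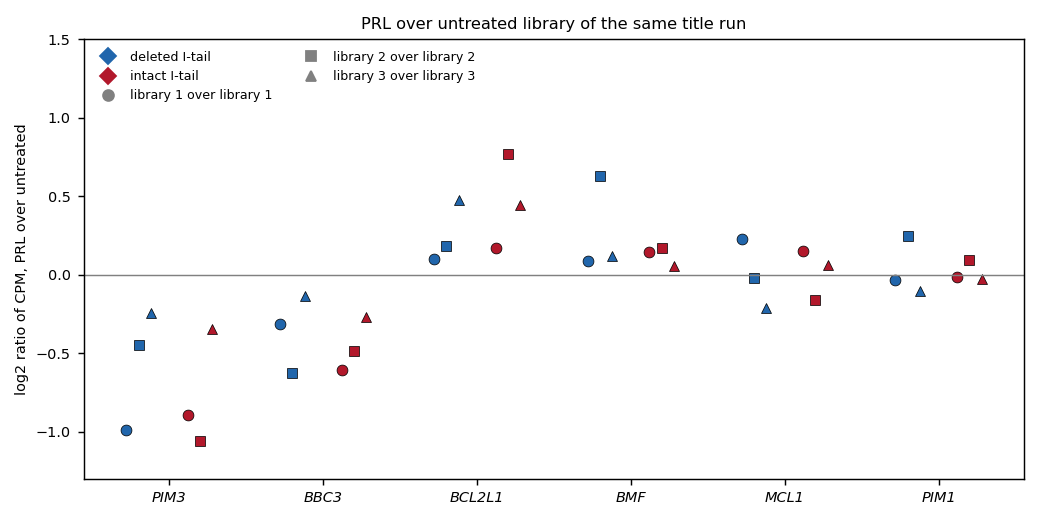
Log2 ratio of CPM with PRL over without PRL between libraries of the same run of titles (y axis), for 6 of the 10 genes in deleted and intact cells, with symbols for library 1, 2 or 3. PIM3 (0.480 to 0.843 times the untreated level) and BBC3 (0.649 to 0.912 times) lie below 0 in all 6 pairs, BCL2L1 (1.07 to 1.71 times) and BMF (1.04 to 1.55 times) lie above 0 in all 6, and MCL1 and PIM1 lie on both sides. BCL2, BCL2L11, PMAIP1 and PIM2, which are not drawn, were on both sides as well. Of all tested genes 6.05% were lower and 8.37% higher in all 6 pairs.

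BMF (ENSG00000104081; chr15:40087890-40108892, minus strand), a BH3-only protein linked to loss of attachment in epithelial cells, had the highest mean per kilobase among the BH3-only members. With the I-tail deleted, values were 179, 155 and 141 CPM with PRL, against 169, 100.2 and 129.5 CPM without. With the I-tail intact, values were 187, 92.2 and 123 CPM with PRL, against 169, 81.7 and 118 CPM without. The groups overlapped, but within runs PRL was above no treatment in 6 of 6 pairs, as for 8.37% of tested genes. The averaged log2 fold change was 0.19 ± 0.21 (95% interval -0.26 to 0.64, edgeR adjusted p 0.98), and it passed with 1 surrogate variable alone (0.38, adjusted p 0.0379).

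BCL2L11 (ENSG00000153094; chr2:111119378-111168447, plus strand) encodes BIM, which FOXO3 is known to induce when growth factors are withdrawn. In deleted cells it stood at 81.5, 49.4 and 42.1 CPM with PRL, against 73.8, 41.1 and 50.1 CPM without. In intact cells it stood at 85.1, 26.1 and 42.5 CPM with PRL, against 74.3, 35.1 and 42.7 CPM without. Library 1 of a group was far above the other 2 in all 4 groups, and treatments overlapped. The averaged log2 fold change was 0.04 ± 0.29 (95% interval -0.58 to 0.66), with 3 of 6 within-run pairs on each side of 1. Its sign turned with library size alone (-0.034), limma-voom (-0.019) and without the first run (-0.084), and leave-outs of 1 library ranged from -0.25 to 0.23. MIR4435-2HG, a long noncoding RNA on the opposite strand, shares 727 exon bases with BCL2L11, and without a stated strand setting reads in them cannot be told apart. It averaged 11.7 ± 2.17 CPM over the 12 libraries, with an averaged log2 fold change of 0.24 ± 0.17 with PRL (edgeR adjusted p 0.98).

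PMAIP1 (ENSG00000141682; chr18:59899948-59904306, plus strand), which encodes the MCL1-selective protein NOXA, was near the limit of detection at 0 to 62 counts per library. Deleted cells held 1.29, 0.09 and 0.39 CPM with PRL, against 1.43, 0 and 0.30 CPM without. Intact cells held 0.19, 0.12 and 0.41 CPM with PRL, against 0.74, 0.36 and 0.30 CPM without. The averaged log2 fold change was -0.43 ± 0.79, with a 95% interval of -2.14 to 1.28 that holds differences in either direction. Its sign turned with limma-voom (0.30), 1 surrogate variable (0.072) and without the first run (0.22).

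BCL2L1 (ENSG00000171552; chr20:31664452-31723989, minus strand), the gene of BCL-XL and a known STAT5 target in red cell precursors, led the guardians. Levels in deleted cells were 95.8, 124.8 and 151.9 CPM with PRL, against 89.3, 110.1 and 109.4 CPM without. Levels in intact cells were 95.9, 293 and 179 CPM with PRL, against 85.0, 171 and 132 CPM without. Both pairs overlapped across libraries, while within runs PRL was above no treatment in 6 of 6 pairs, at 1.07 to 1.71 times the untreated level, as for 8.37% of tested genes. The log2 fold change was 0.27 ± 0.35 (SE) in deleted and 0.55 ± 0.35 in intact cells, and 0.41 ± 0.24 averaged (95% interval -0.12 to 0.94, edgeR quasi-likelihood adjusted p 0.98). Without intact PRL library 2, whose 293 CPM was the highest value, the average was 0.18, and without intact PRL library 1 it was 0.57. With the run term it was 0.375 ± 0.137 (0.082 to 0.668, edgeR adjusted p 0.258). Without the first run it was 0.49 ± 0.16 (0.15 to 0.83, edgeR adjusted p 0.510). Both of these intervals lay above 0, and neither value passed. The antisense gene ABALON shares 1424 exon bases with BCL2L1 and had 0 to 3 counts per library.

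MCL1 (ENSG00000143384; chr1:150574551-150579738, minus strand), a short-lived guardian held in place by constant synthesis, varied least of the 10 in relation to its mean. With the I-tail deleted, values were 128, 104.7 and 87.1 CPM with PRL, against 109.7, 106.2 and 100.7 CPM without. With the I-tail intact, values were 124, 76.1 and 94.8 CPM with PRL, against 111.1, 85.0 and 90.9 CPM without. Treatments overlapped, and the averaged log2 fold change was 0.03 ± 0.15 with a 95% interval of -0.29 to 0.34. Its sign turned with library size alone (-0.060), without the first run (-0.072) and in single leave-outs, which ranged from -0.072 to 0.11.

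BCL2 (ENSG00000171791; chr18:63123346-63320128, minus strand), the founding guardian and a known oestrogen-responsive gene in breast cells, stayed below 2 CPM. In deleted cells it stood at 0.91, 1.20 and 0.51 CPM with PRL, against 1.08, 1.12 and 0.61 CPM without. In intact cells it stood at 1.21, 1.58 and 0.63 CPM with PRL, against 0.63, 0.44 and 0.87 CPM without. Treatments overlapped in both pairs. The log2 fold change was -0.11 ± 0.45 (SE) in deleted and 0.81 ± 0.46 in intact cells, and 0.35 ± 0.32 averaged (95% interval -0.35 to 1.04), none of which passed. With limma-voom the signs turned, at 0.15 in deleted and -0.13 in intact cells, and with 1 library left out the value in deleted cells ranged from -0.38 to 0.16.

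Whether the I-tail changed the response to PRL was tested as the PRL effect in deleted cells minus that in intact cells. No member passed, none had an unadjusted p under 0.05 and DESeq2 and limma-voom called none, against 0% of tested genes called and 0.718% at an unadjusted p under 0.05. For PIM3 the difference was 0.19 ± 0.30 on the log2 scale, with a 95% interval of -0.46 to 0.83. For BBC3 it was 0.07 ± 0.33 (-0.63 to 0.77). For BCL2L1 it was -0.28 ± 0.49 (-1.33 to 0.77), and without intact PRL library 2 it was 0.19. For BCL2 it was -0.91 ± 0.64 (-2.30 to 0.48), and 0.28 with limma-voom. With limma-voom PIM3 (-0.0095) and BBC3 (-0.055) turned as well, and leave-outs of 1 library ranged from -0.0098 to 0.36 for PIM3 and from -0.14 to 0.24 for BBC3. CISH gave -0.28 ± 0.32 (-0.97 to 0.41). Across the 10 members the median distance from the estimate to the end of its 95% interval was 0.84.

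Deletion of the I-tail by itself was compared under PRL, without PRL and as the average of both. No member passed in any of the 3 (edgeR quasi-likelihood, adjusted p 0.991 to 1), where 0.00566% of tested genes passed in each. None had an unadjusted p under 0.05, against 1.62% of tested genes under PRL, 0.837% without PRL and 2.28% for the average, and DESeq2 and limma-voom called none. For the average, 4 members had an unadjusted p under 0.05 with limma-voom, 3 with the run term and 4 without the first run, and none passed adjustment there. With the run term the log2 fold change was -0.32 ± 0.09 for PIM2 (95% interval -0.50 to -0.13, edgeR adjusted p 0.317) and -0.39 ± 0.14 for BCL2L1 (-0.68 to -0.092, adjusted p 0.322). No member separated deleted from intact libraries in either treatment, whereas 2.06% of tested genes were separated with lower and 2.89% with higher levels in deleted cells under PRL, and 1.91% and 3.58% without PRL.

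Among the guardians, BCL2L1 averaged 113.5 ± 22.5 CPM in deleted and 159 ± 75.6 CPM in intact cells (SD, n = 6 each), with an averaged log2 fold change of -0.47 ± 0.24 (SE, 95% interval -0.996 to 0.057). Without intact PRL library 2 it was -0.26, and without the first run -0.61 ± 0.16 (edgeR adjusted p 0.213). MCL1 averaged 106.1 ± 13.4 CPM in deleted and 96.9 ± 17.5 CPM in intact cells, a log2 fold change of 0.13 ± 0.15 (-0.18 to 0.44). BCL2 gave 0.07 ± 0.32 (-0.62 to 0.76). Intervals of all 3 guardians held 0 in the fit of all libraries without a run term. That of BCL2L1 lay below 0 without the first run (-0.94 to -0.27) and with the run term (-0.68 to -0.092).

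Of the BH3-only genes, BBC3 averaged 46.7 ± 8.13 CPM in deleted and 51.3 ± 14.04 CPM in intact cells, a log2 fold change of -0.13 ± 0.16 (-0.48 to 0.22). BMF averaged 146 ± 28.6 CPM in deleted and 128.5 ± 41.8 CPM in intact cells, a log2 fold change of 0.18 ± 0.21 (-0.28 to 0.63). BCL2L11 averaged 56.3 ± 17.1 CPM in deleted and 51.0 ± 23.3 CPM in intact cells (0.14 ± 0.29, -0.48 to 0.77). PMAIP1 gave 0.79 ± 0.80 on its few counts (-0.93 to 2.50). The intervals of all 4 held 0 in the fit of all libraries without a run term. That of BMF lay just above 0 with the run term (0.0019 to 0.44) and without the first run (0.0044 to 0.67), and neither value passed. The sign turned for PMAIP1 with limma-voom (-0.85) and without the first run (-0.65), and for BCL2L11 (-0.039) and BBC3 (0.0069) with 1 surrogate variable.

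Of the kinases, PIM3 averaged 72.1 ± 19.1 CPM in deleted and 87.7 ± 30.1 CPM in intact cells, a log2 fold change of -0.26 ± 0.15 (-0.58 to 0.06). PIM2 averaged 22.6 ± 4.13 CPM in deleted and 28.4 ± 6.59 CPM in intact cells (-0.33 ± 0.18, -0.71 to 0.05). PIM1 averaged 11.3 ± 2.54 CPM in deleted and 10.3 ± 1.12 CPM in intact cells (0.13 ± 0.17, -0.23 to 0.49). Without the first run PIM3 was at -0.44 ± 0.13 and PIM2 at -0.37 ± 0.14, with adjusted p of 0.215 and 0.272 in edgeR.

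**Figure D4:**
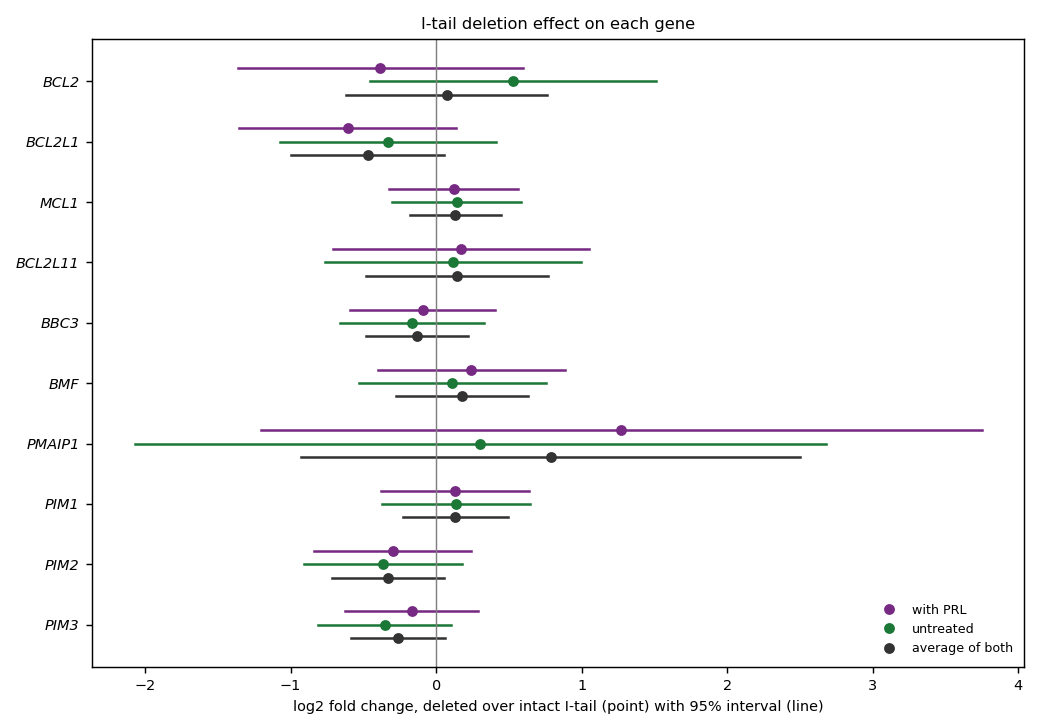
Log2 fold change of each gene in deleted over intact cells (x axis), with PRL, without PRL and as the average of both, with 95% intervals from the edgeR quasi-likelihood fit. All intervals hold 0, and BCL2L1 (-0.47) and PIM2 (-0.33) have the lowest averages.

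Most members differed by run of titles. In a fit with group and run as terms, 8 of 10 members differed over the 3 runs (edgeR quasi-likelihood F test, Benjamini-Hochberg adjusted p under 0.05), against 42.1% of tested genes. The 2 others were PIM3 (adjusted p 0.709) and BCL2 (0.39). Every adjusted p by run, here and below, comes from that F test over the 3 runs. Each log2 difference is the first run minus the mean of the others, and has no adjusted p of its own. BCL2L11 stood at 73.8 to 85.1 CPM in the 4 libraries of the first run, above all other libraries at 26.1 to 50.1 CPM. Its log2 difference was 0.95 ± 0.12, and the F test over the 3 runs gave an adjusted p of 1.53e-04. BMF stood at 169 to 187 CPM in the first run and 81.7 to 155 CPM in the others. Its log2 difference was 0.61 ± 0.11 (F test over the 3 runs, adjusted p 0.00122). MCL1 was likewise above all others in the first run, at 109.7 to 128 CPM against 76.1 to 106.2 CPM. Its log2 difference was 0.35 ± 0.10 (F test over the 3 runs, adjusted p 0.0265). Such separation upwards held for 12.8% of tested genes.

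BCL2L1 showed the opposite order, with 85.0 to 95.9 CPM in the first run. These values were below all other libraries, at 109.4 to 293 CPM, as for 13.6% of tested genes. Its log2 difference was -0.72 ± 0.15, and the F test over the runs gave an adjusted p of 0.00384. PIM2 stood at 17.6 to 21.5 CPM in the first run, 25.1 to 36.6 CPM in the second and 20.2 to 30.5 CPM in the last (adjusted p 0.00125). PIM1 was highest in the last run, at 11.7 to 15.0 CPM, against 8.41 to 10.5 CPM in the first and second (adjusted p 0.0104). BBC3 (adjusted p 0.0153) and PMAIP1 (0.0362) also differed. The first run was also the one with the lowest epithelial marker sum, as given above, and with the most genes detected, 24477 to 25200 against 19073 to 23895 in the others. The part of either in the levels of these members was not tested.

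**Figure D5:**
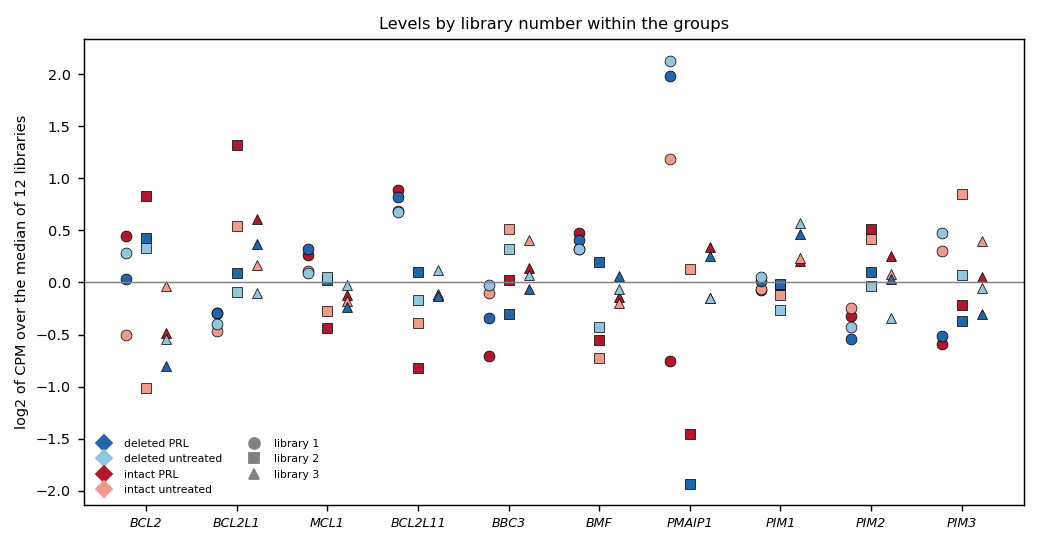
Log2 of the CPM of each library over the median of the 12 libraries (y axis) for the 10 genes, with symbols for library 1, 2 or 3 of a group (the first, the second or the last run of titles) and colours for the 4 groups. Library 1 lies highest for BCL2L11, BMF and MCL1 and lowest for BCL2L1 in every group, and library 3 highest for PIM1. PMAIP1 at 0 counts in deleted untreated library 2 has no point.

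Genes that act around the members were read from lists of the other BCL2 family genes, the apoptosome and caspases, caspase inhibitors, the death receptor pathway, enzymes of MCL1 turnover, PIM substrates and transcription factors known to regulate members. For the averaged PRL effect 1 gene of all these lists passed. JUN, an immediate early transcription factor of the AP-1 complex, averaged 190.6 CPM with PRL and 56.5 CPM without in deleted cells, and 188.5 CPM with PRL and 55.0 CPM without in intact cells. JUN rose by 1.77 ± 0.15 on the log2 scale for the average (edgeR quasi-likelihood, adjusted p 2.08e-04), and no gene of the lists passed for the deletion or the interaction. The other 16 of 17 tested regulators did not pass. DDIT3, the stress factor CHOP, had the next smallest p at -0.70 ± 0.31 (adjusted p 0.98). STAT5A gave -0.09 ± 0.14 and STAT5B -0.04 ± 0.11.

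Of 16 other BCL2 family genes 11 were tested and none passed, with a median log2 fold change of 0.19 with PRL, against -0.02 over all tested genes. BOK, a pore former that acts outside guardian control, gave 0.49 ± 0.27, and BID, which links death receptors to mitochondria, 0.20 ± 0.12. None of 12 apoptosome and caspase genes passed (median -0.03). Of these, DIABLO, which relieves caspase inhibition, gave -0.37 ± 0.17, and the mitochondrial nuclease gene ENDOG 0.38 ± 0.26. None of 6 caspase inhibitors passed (median -0.05), with survivin (BIRC5) at 0.48 ± 0.33 and the caspase-8 decoy CFLAR at -0.25 ± 0.18. None of 8 death receptor genes passed (median 0.11), with the TNF receptor TNFRSF1A at 0.36 ± 0.16 and the TRAIL gene TNFSF10 at 0.72 ± 0.33. The 6 MCL1 turnover genes had a median of -0.03, with the ubiquitin ligase adaptor genes BTRC at -0.28 ± 0.16 and SKP2 at -0.17 ± 0.16. The 11 PIM substrates had a median of 0.06, with the translation repressor EIF4EBP1 at 0.65 ± 0.34 and the chemokine receptor CXCR4, below 1 CPM, at -2.12 ± 1.07. The adjusted p of each of these genes was 0.98 in edgeR's quasi-likelihood test.

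For the averaged deletion effect the same lists gave medians between -0.07 and 0.12, against 0.03 over all tested genes, and each gene named here had an edgeR adjusted p of 0.991. The pore former BAX gave -0.27 ± 0.16 and the PIM substrate BAD -0.43 ± 0.26. DIABLO gave 0.17 ± 0.17 and ENDOG -0.39 ± 0.26. The inhibitor BIRC3, at only 0.39 CPM in deleted and 0.21 CPM in intact cells, gave 0.93 ± 0.89, and CFLAR gave 0.16 ± 0.18. TNFRSF1A gave -0.23 ± 0.16 and its adaptor TRADD -0.27 ± 0.18. All 6 MCL1 turnover genes were above 0, with BTRC at 0.19 ± 0.16 and FBXW7 at 0.16 ± 0.17. Among PIM substrates AKT1S1, an mTORC1 inhibitor, gave -0.41 ± 0.22 and the cell cycle inhibitor CDKN1A -0.38 ± 0.23. Among regulators E2F1, a cell cycle factor, gave -0.81 ± 0.37 and STAT5A -0.25 ± 0.14.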

How the data were processed

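PolyA-selected RNA of 12 MCF10AT libraries was sequenced. The authors deposited 1 table of whole-number read counts per Ensembl gene and library, not normalized. Per the submitters' processing notes, the tools were STAR 2.7.9a, FastQC and featureCounts from Subread, on GRCh38. The annotation release, strand setting and filters of that counting are not given in sources used here. Assignment to groups came from the genotype and treatment labels, and library numbers follow the order of titles within a group. P-values measure the spread between these libraries.

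Of 62703 entries, 1 had no values and was dropped. A symbol was found for 62624 of the 62702 others. Positions and exon lengths came from GENCODE 29, and promoter windows from RefSeq. Between libraries of a group, chi-square per degree of freedom was 57.2 to 239.6, so none was a repeat of another. In R 4.3.3, edgeR 4.0.16 kept 17677 genes (filterByExpr), scaled by TMM and fitted 1 mean per group with robust quasi-likelihood dispersions (biological coefficient of variation 0.303, with 8 residual degrees of freedom). Each of 7 contrasts had a quasi-likelihood F test, with Benjamini-Hochberg adjustment across the 17677 genes and calls at 0.05. The ± beside a log2 fold change is its standard error, and that beside CPM the SD. The scripts were tested on simulated data. The median half-width of the members' 95% intervals was 0.59 within a receptor pair and 0.42 for the averages (log2).

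Alternatives were other scalings, filters, limma-voom (limma 3.58.1), DESeq2 1.42.0, 1 surrogate variable (sva 3.50.0), a run term, fits of the compared groups only and each library left out. The fit without the first run of titles, the test over runs and the within-run ratios were added after the data were seen. Members, lists and tests were chosen with earlier results of these data known. Named were the 10 members, overlapping genes, CISH, PRLR, and from each other list any called gene and the 2 genes with the smallest p for each averaged effect. STAT5B was added after its values were seen.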

Additional observations from a re-analysis of the deposited data

How the results depend on the processing

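The count of genes called depended on the method. For PRL in deleted cells, 3 genes became 1 with library size alone, 33 without a count filter, 21 with limma-voom, 46 with a surrogate variable, 57 with the run term, 20 with DESeq2, 11 with the compared groups only and 1 to 5 with 1 library left out. For PRL in intact cells, 3 became 1, 46, 25, 52, 62, 22, 1 and 1 to 4 in the same order. For the PRL average, 21 became 124 without a filter, 116 with limma-voom, 160 with a surrogate variable, 198 with the run term, 91 with DESeq2, 37 without the first run and 11 to 27 with 1 library left out (12 without deleted untreated library 1, 11 without library 2). For deletion under PRL, 1 became 0 with library size alone, 4 without a filter, 2 with limma-voom, 2 with DESeq2, 0 with compared groups only, 0 without the first run and 0 to 1 with 1 library left out; for deletion without PRL the values were 0, 6, 5, 4, 0, 0 and 0 to 1. For the deletion average, 1 became 33 without a filter, 8 with limma-voom, 4 with a surrogate variable, 11 with the run term, 10 with DESeq2 and 1 to 2 with 1 library left out. The interaction stayed at 0 in each. Over all alternatives and members, 7 of 229 values passed for the PRL average (5 of PIM3, 1 each of BBC3 and BMF) and none of 239 or 229 for each other comparison. Library size alone moved the median of all genes from -0.02 to -0.12 for the PRL average and from 0.03 to 0.11 for the deletion average. Some values changed sign. With limma-voom BCL2 with PRL was 0.15 in deleted and -0.13 in intact cells, with an interaction of 0.28, and without the first run 3.93e-04 in deleted cells. For the PRL average, MCL1 was -0.060 with library size alone and -0.072 without the first run; BCL2L11 was -0.034 with library size alone, -0.019 with limma-voom and -0.084 without the first run; PMAIP1 was 0.30 with limma-voom, 0.072 with a surrogate variable and 0.22 without the first run; PIM1 was -0.0054 with upper-quartile scaling, -0.10 with library size alone, -0.062 with limma-voom and -0.020 with a surrogate variable; PIM2 was -0.0063 with library size alone and -0.050 with a surrogate variable. For the deletion average, BCL2L11 was -0.039 and BBC3 0.0069 with a surrogate variable, PMAIP1 was -0.85 with limma-voom and -0.65 without the first run, and PIM1 was -0.0040 with limma-voom. Interactions of BBC3 (-0.055) and PIM3 (-0.0095) turned with limma-voom. With 1 library left out, the range was -0.072 to 0.11 for MCL1, -0.25 to 0.23 for BCL2L11, -1.08 to 0.54 for PMAIP1 and -0.072 to 0.14 for PIM1 (PRL average), -0.38 to 0.16 for BCL2 with PRL in deleted cells, -0.10 to 0.20 for BCL2, -0.031 to 0.43 for BCL2L11 and -0.19 to 1.08 for PMAIP1 (deletion average), and -0.59 to 0.19 for BCL2L1, -0.14 to 0.24 for BBC3 and -0.0098 to 0.36 for PIM3 (interaction). The causes were not tested. The labels give no shared replicate numbers, so the runs of titles were used as blocks in the run-term fit. Deviations from group means correlated at 0.0966 to 0.603 over 18 pairs of libraries of 1 run and -0.447 to 0.301 over 36 pairs of different runs. Counts below 100 per library (BCL2, PMAIP1) limit what depth can show.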
